A study of Arabidopsis thaliana with 18 samples.

Results

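Dry seeds of 2 Arabidopsis thaliana mutants, mkk3-1 and mpk7_ko3, were compared with each other across all genes, with 3 libraries of each mutant, 6 of the 18 libraries of the study. The members were taken from their labels alone: mkk3-1 dry replicates 1 to 3 against mpk7_ko3 dry replicates 1 to 3. Per the labels both mutants and the wild type are of the Col-0 ecotype, and the seed was sampled fresh from the harvest, either dry or after 6 h on wet filter paper. The labels call the mutants knockouts of MKK3 and of MPK7 and name no other allele, transgene or agent for any group, and where each gene is disrupted is not given in the sources used here. The 3 dry libraries of wild type Col-0 and the 6 imbibed libraries of the mutants were used to place the differences, and all 18 libraries entered the fit that estimated the spread between replicates. The labels do not say whether replicates came from separate plants or harvests, so p-values measure the spread between these libraries, which may be technical.

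MKK3 is a MAPKK, the middle tier of a kinase relay in which a MAPKKK phosphorylates a MAPKK, which in turn phosphorylates a MAPK. MPK7 belongs to the group C MAPKs (MPK1, MPK2, MPK7 and MPK14) that MKK3 activates. Orthologues of MKK3 in barley and wheat are known as grain dormancy genes, and in Arabidopsis the module is known in abscisic acid, wounding and nitrate responses. Since the mutants remove adjoining steps of the same relay, setting them against each other shows where their seed transcriptomes part.

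Read counts per gene were tested in edgeR and are given as CPM, counts relative to a library's total after TMM scaling. Differences below are log2 fold changes, mkk3-1 minus mpk7_ko3, ± standard error with n = 3 libraries per group, and a gene is called higher or lower where its Benjamini-Hochberg adjusted p over all 17758 genes tested is below 0.05. Each of the 6 dry mutant libraries held 18249333 to 20185911 counts. Ribosomal RNA genes held 0.844% to 1.02% of counts in mkk3-1, 0.501% to 0.654% in mpk7_ko3 and 0.844% to 1.41% in dry Col-0. The 2 mutants did not overlap in this share (exact permutation test over libraries, two-sided p = 0.1, the smallest that 3 against 3 can give).

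One mpk7_ko3 library, replicate 3, was unlike its 2 fellows. Its log2 CPM correlated with those of mpk7_ko3 replicates 1 and 2 at 0.9761 and 0.9791 across genes, but with mkk3-1 replicates 1, 2 and 3 at 0.9846, 0.9812 and 0.9843. A chi-square of the counts per degree of freedom parted it less clearly. That was 34.9 and 22.4 against mpk7_ko3 replicates 1 and 2, and 22, 30.1 and 23.3 against mkk3-1 replicates 1, 2 and 3. Between mpk7_ko3 replicates 1 and 2 it was 13.1. On the first principal component of the 6 libraries, with 38.2% of the variance, mpk7_ko3 replicates 1 and 2 lay at 42.8 and 38.2, replicate 3 at -16.1 and the mkk3-1 libraries at -29.5 to -7.0. Differences between the dry mutants are therefore given with and without this library, as far as the fits allow. Comparisons with Col-0 are given only with it.

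The targeted genes followed the labels in every dry library, replicate 3 included. MKK3 stood at 7.12, 7.21 and 7.75 CPM in mkk3-1 and at 20.2, 21.4 and 21.2 CPM in mpk7_ko3, with 16.2 to 18.6 CPM in dry Col-0. The groups did not overlap, and mpk7_ko3 replicate 3 lay between the other 2 libraries of its group. The difference was -1.51 ± 0.105 (adjusted p = 1.46e-08), and -1.50 without that library. MPK7 stood at 36.7, 39.0 and 39.4 CPM in mkk3-1 and at 15.2, 14.3 and 14.7 CPM in mpk7_ko3, with 38.7 to 44.2 CPM in dry Col-0. Its difference was 1.38 ± 0.0950 (adjusted p = 1.3e-08), and also 1.38 without replicate 3. Each mutant thus kept a lowered level of reads of its own targeted gene and a level of the other gene whose difference from Col-0 missed the threshold (MPK7 in mkk3-1, adjusted p = 0.624, and MKK3 in mpk7_ko3, adjusted p = 0.155). MKK3 (chr5:16181628-16184827, plus strand) shares 21 of its 1973 exon bases with AT5G40450 and 55 with the small nuclear RNA gene AT5G06055, which had no read in any library.

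Across the genome, 215 genes, 1.21% of those tested, differed between the dry mutants. Of these, 136 (0.766%) were higher and 79 (0.445%) lower in mkk3-1 than in mpk7_ko3, while the median over all genes tested was 0.0021. A change of at least 2-fold was seen in 46 of them, 35 higher and 11 lower. The library values of the 2 groups did not overlap for any of the 215 genes, against 17.7% of all genes tested. The split leaned to the higher side, at 63.3% of calls, but it moved with the scaling, with 80.5% higher by library totals, 55.8% by DESeq2 size factors in edgeR and 44.8% with the length trend of each library removed. It was 45.7% among the 610 calls of DESeq2, where the test differed as well.

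Calls were spread over the 5 nuclear chromosomes, from 1.02% of genes tested on chromosomes 3 and 5 to 1.63% on chromosome 2. Without mpk7_ko3 replicate 3 the shares ran from 4.0% on chromosome 5 to 6.61% on chromosome 4. Within 1 Mb either side of MKK3, 3 of 289 genes were called (1.04%), and within 1 Mb of MPK7 3 of 291 (1.03%), shares near that of all genes. Without replicate 3 these were 9 (3.11%) and 12 (4.12%). None of the 50 mitochondrial and 67 plastid genes tested was called with all libraries, and 1 of each was without replicate 3.

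Leaving out mpk7_ko3 replicate 3 raised the number of calls from 215 to 882 of 18024 genes tested (4.89%), of which 582 were higher and 300 lower in mkk3-1. Of the 215 genes, 187 (87.0%) were called in both fits, all in the same direction, and 28 were lost. The 187 were 21.2% of the calls without replicate 3. Leaving out any other library gave 33 to 217 calls. The lowest numbers came without mpk7_ko3 replicate 2 (33) and mkk3-1 replicate 1 (40), and 85 remained without mkk3-1 replicate 3 and 127 without mpk7_ko3 replicate 1. Without mkk3-1 replicate 2, the number was 217, of which 42.9% were higher, and without mpk7_ko3 replicate 2 the share was 45.5%.

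Each left-out library was placed, gene by gene, between the other genotype (position 0) and the other 2 libraries of its own group (position 1), using only the genes called without it, a measure added after the data had been seen. The library left out had no part in calling those genes, but the other 2 of its group did. A position below 1 is therefore likely from the choice alone. The sets also differ in size, from 33 to 878 genes, so the medians do not compare like with like. Median positions were 0.89, 0.57 and 0.76 for mkk3-1 replicates 1, 2 and 3, and 0.59 and 0.96 for mpk7_ko3 replicates 1 and 2. For mpk7_ko3 replicate 3 the median was 0.27 over the 878 genes also tested with all libraries, and 603 of them (68.7%) lay nearer to mkk3-1 than to its own group. In 240 of the 878 genes it lay beyond the mkk3-1 mean.

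**Figure D1:**
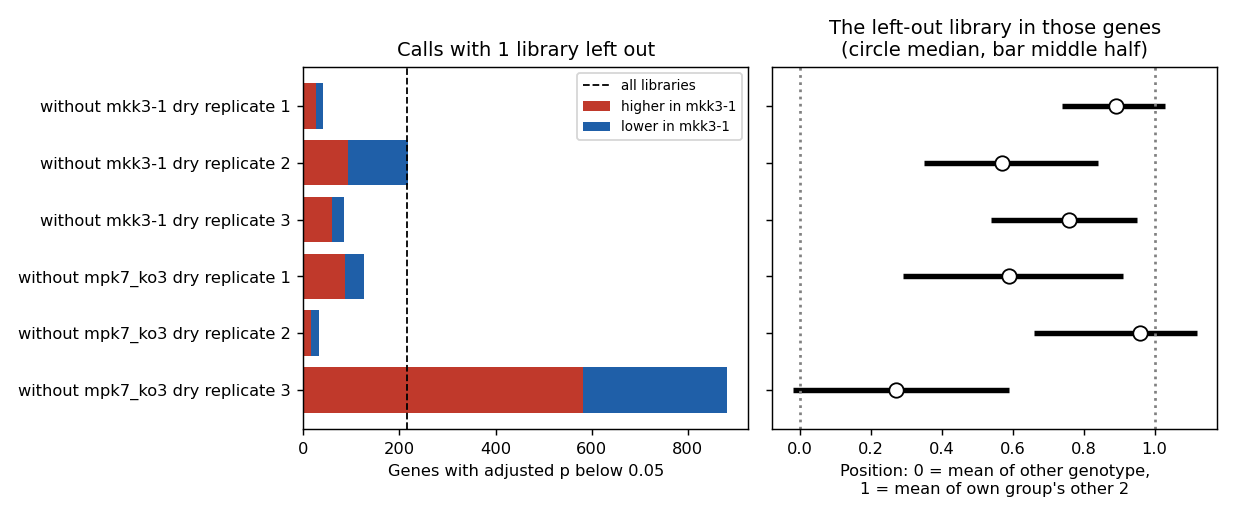
Left, genes called (adjusted p below 0.05) between the dry mutants when each library is left out, split into higher (red) and lower (blue) in mkk3-1, with the 215 calls of all libraries as a dashed line. Right, position of the left-out library in those genes as the median (circle) and interquartile range (bar), from the other genotype at 0 to its own group at 1. Leaving out mpk7_ko3 replicate 3 gave 882 calls, and its median position was 0.27.

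Only 23 genes were called with all libraries and again in each of the 6 fits that left out 1 library, 12 of them higher and 11 lower in mkk3-1. Of the others, 14 were called in none of those 6 fits and 52 in a single one. In the 23, mpk7_ko3 replicate 3 lay between the other 2 libraries of its group for 8 genes, shifted toward mkk3-1 for 9 and away from it for 6. Set beside dry Col-0, 13 of the 23 passed the test in mkk3-1 but not in mpk7_ko3, 8 passed in mpk7_ko3 but not in mkk3-1, 2 passed in neither and 0 in both. These comparisons with Col-0 share the Col-0 libraries, and over all genes they called 2.08% in mkk3-1 and 2.76% in mpk7_ko3. Those of mpk7_ko3 include replicate 3 and are not given without it, here or below.

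**Figure D2:**
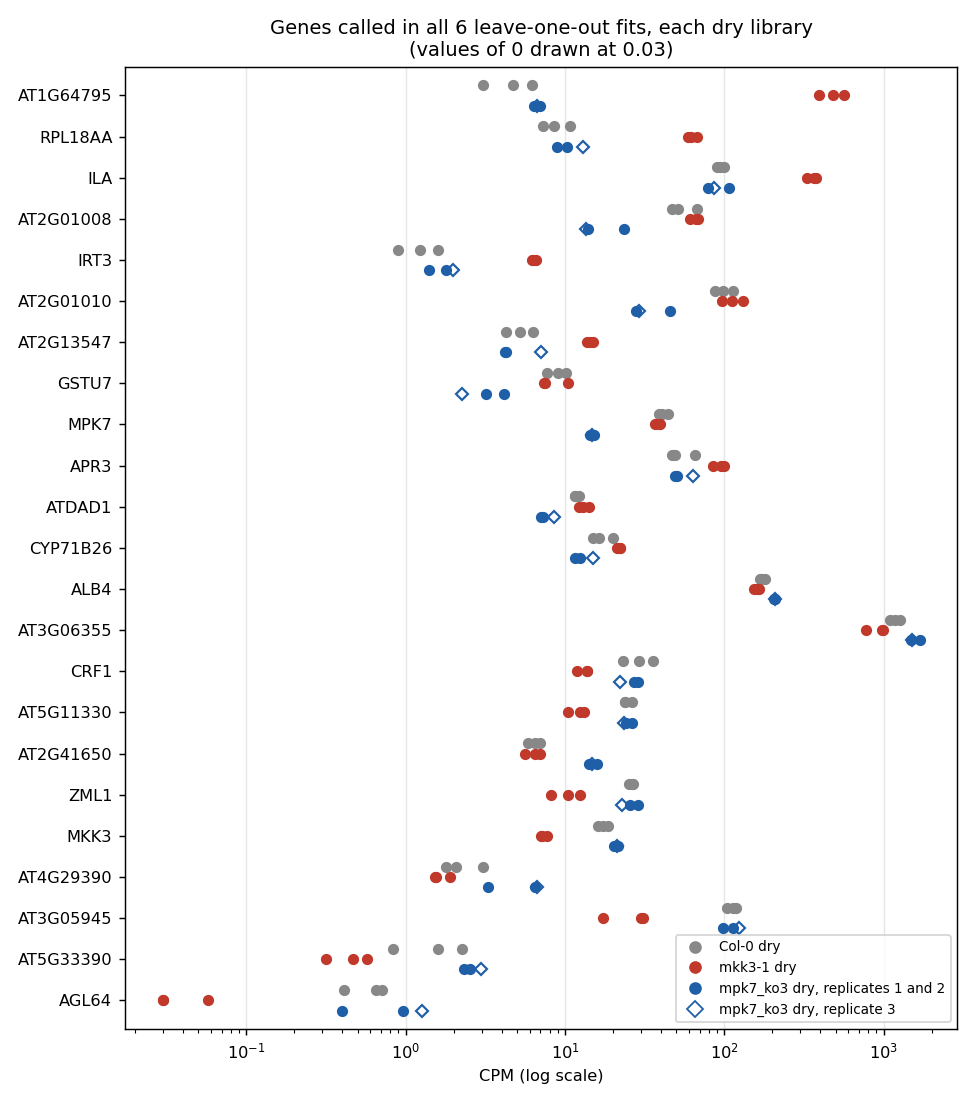
CPM in each dry library (log axis) of the 23 genes called in all 6 fits that leave out 1 library, ordered by the difference. Grey, Col-0; red, mkk3-1; blue circles, mpk7_ko3 replicates 1 and 2; open blue diamond, mpk7_ko3 replicate 3. For AT1G64795, mkk3-1 stood at 393 to 563 CPM and mpk7_ko3, replicate 3 included, at 6.40 to 6.96 CPM.

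The largest difference was at AT1G64795, a gene for an uncharacterized protein. It stood at 481, 563 and 393 CPM in mkk3-1 and at 6.96, 6.40 and 6.70 CPM in mpk7_ko3, while dry Col-0 held 3.08 to 6.17 CPM. The groups were far apart and mpk7_ko3 replicate 3 lay between its fellows. The difference was 6.16 ± 0.258 (adjusted p = 3.59e-12), the same 6.16 without that library. The gene (chr1:24082579-24082848, plus strand, TAIR10) lies inside ILA (AT1G64790, chr1:24064822-24083428, minus strand), and 142 of its 201 exon bases are also exon bases of ILA on the other strand. Its sequence is shown because reads on those shared bases, in capitals, cannot be given to either gene when strand is not used in counting. The strand setting is not given in the sources used here.
AT1G64795: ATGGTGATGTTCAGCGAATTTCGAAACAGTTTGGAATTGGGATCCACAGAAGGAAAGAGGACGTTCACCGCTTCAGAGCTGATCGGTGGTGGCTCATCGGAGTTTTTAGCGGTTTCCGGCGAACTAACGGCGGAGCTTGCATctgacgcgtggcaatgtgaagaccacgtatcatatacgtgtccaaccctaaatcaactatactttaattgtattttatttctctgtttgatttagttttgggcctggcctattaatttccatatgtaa

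ILA (ILITYHIA), a HEAT-repeat protein related to yeast GCN1, differed too. It stood at 367, 375 and 329 CPM in mkk3-1 and at 79.4, 107 and 86.6 CPM in mpk7_ko3, beside 89.9 to 99.5 CPM in dry Col-0. Again there was no overlap, and mpk7_ko3 replicate 3 lay between the other 2. The difference was 1.97 ± 0.113 (adjusted p = 5.43e-10), and 1.94 without replicate 3. ILA was higher in mkk3-1 than in Col-0 (1.92 ± 0.113), while mpk7_ko3 minus Col-0 was -0.05 (adjusted p = 0.870).

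A second pair of adjacent genes parted the mutants in opposite directions. RPL18AA (AT1G29970, chr1:10498351-10501498, minus strand), annotated as a protein of the large ribosomal subunit, stood at 59.5, 67.2 and 62.0 CPM in mkk3-1 and at 10.3, 8.93 and 13.0 CPM in mpk7_ko3, with 7.26 to 10.7 CPM in Col-0. Replicate 3 was the highest mpk7_ko3 library but stayed far below mkk3-1, and the difference was 2.54 ± 0.137 (adjusted p = 2.37e-10), or 2.71 without it. It shares 629 of its 1780 exon bases with AT1G29965 on the same strand. AGL64 (AT1G29962), a MADS-box transcription factor gene at chr1:10496730-10497287 on the plus strand, had 1, 0 and 0 reads in dry mkk3-1 and 14, 6 and 21 in dry mpk7_ko3. Its summed level was 44.7 times higher in mpk7_ko3, with a 95% counting interval of 7.58 to 1810 that covers counting error only. Its adjusted p was 0.00862 in edgeR, and 0.0105 without replicate 3, which held the most reads of its group.

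IRT3, a plasma membrane transporter of zinc and iron from the ZIP family, was higher in mkk3-1. It stood at 6.55, 6.32 and 6.18 CPM there and at 1.79, 1.40 and 1.97 CPM in mpk7_ko3, with 0.899 to 1.60 CPM in Col-0. The groups did not overlap, the difference was 1.87 ± 0.254 (adjusted p = 0.000515), and it was 1.99 without replicate 3. APR3, an adenosine 5'-phosphosulfate reductase of sulfate assimilation, stood at 95.9, 99.9 and 84.5 CPM in mkk3-1 and at 50.7, 48.8 and 63.3 CPM in mpk7_ko3. Replicate 3 was the nearest mpk7_ko3 library to mkk3-1, and the difference of 0.78 ± 0.128 (adjusted p = 0.00417) was 0.91 without it. AT2G13547, for an uncharacterized protein, showed the same pattern, at 13.8 to 14.9 CPM in mkk3-1 against 4.27, 4.20 and 7.12 CPM, with a difference of 1.45 ± 0.217 (adjusted p = 0.00172) and 1.76 without replicate 3. All 3 genes were higher in mkk3-1 than in Col-0, with log2 differences of 2.34, 0.80 and 1.45.

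Among the stable genes lower in mkk3-1 were 2 transcription factors. ZML1, a GATA-type zinc finger factor, stood at 10.4, 12.4 and 8.22 CPM in mkk3-1 and at 28.7, 25.7 and 22.8 CPM in mpk7_ko3. CRF1, a cytokinin response factor of the AP2/ERF family, stood at 11.9, 13.8 and 13.8 CPM against 27.1, 28.6 and 22.1 CPM. In both genes the groups did not overlap, and replicate 3 was the lowest mpk7_ko3 library. The differences were -1.32 ± 0.123 for ZML1 (adjusted p = 1.49e-06) and -0.98 ± 0.138 for CRF1 (adjusted p = 0.000852), and they were -1.40 and -1.08 without replicate 3. AT5G11330, a FAD/NAD(P)-binding oxidoreductase, was lower at 10.5 to 13.2 CPM against 26.4, 24.1 and 23.4 CPM (-1.03 ± 0.101, adjusted p = 2.94e-06, and -1.07 without replicate 3). These 3 genes were also lower in mkk3-1 than in Col-0, with log2 differences of -1.34, -1.15 and -1.03, while none of the 3 passed the test in mpk7_ko3 against Col-0.

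AT3G05945, annotated as an RNA gene without a coding product, was also lower in mkk3-1. It stood at 30.7, 17.4 and 30.0 CPM in mkk3-1 and at 113, 98.6 and 123 CPM in mpk7_ko3, beside 104 to 119 CPM in Col-0. No library crossed over, and the difference was -2.10 ± 0.178 (adjusted p = 4.27e-07), or -2.02 without replicate 3. AT5G33390, for a glycine-rich protein, had 10, 5 and 8 reads in mkk3-1 and 34, 38 and 50 in mpk7_ko3, with an adjusted p of 0.00288 and 0.00476 without replicate 3.

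For the other group of stable genes it was mpk7_ko3 that stood apart from Col-0. AT2G41650, for an uncharacterized protein, was at 5.63, 6.51 and 6.94 CPM in mkk3-1, 5.82 to 7.0 CPM in Col-0 and 14.1, 15.9 and 14.8 CPM in mpk7_ko3. Replicate 3 lay between the other 2, and the difference was -1.23 ± 0.113 (adjusted p = 1.26e-06), or -1.24 without it. It shares 898 of its 1793 exon bases with AT2G41640 on the same strand, a glycosyltransferase gene whose own difference was 0.06 ± 0.292 (adjusted p = 0.943). AT4G29390, for a ribosomal protein of the S30 family, was at 1.55, 1.90 and 1.52 CPM in mkk3-1 and at 3.31, 6.53 and 6.64 CPM in mpk7_ko3 (-1.74 ± 0.270, adjusted p = 0.00267, and -1.58 without replicate 3). It shares 450 of 672 exon bases with VPS15 on the other strand.

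GSTU7, a glutathione transferase of the tau class, was at 10.5, 7.40 and 7.52 CPM in mkk3-1 and at 4.14, 3.20 and 2.27 CPM in mpk7_ko3. Replicate 3 was the farthest from mkk3-1, and the difference was 1.41 ± 0.216 (adjusted p = 0.00231), or 1.21 without it. It shares 559 of 887 exon bases with AT2G08340 on the other strand. ATDAD1, a subunit of the enzyme that adds N-glycans in the endoplasmic reticulum, was at 12.9, 12.2 and 14.2 CPM against 7.24, 7.06 and 8.49 CPM (0.78 ± 0.114, adjusted p = 0.00123, and 0.87 without replicate 3). ALB4, which inserts proteins into the thylakoid membrane, was at 154, 161 and 166 CPM against 208, 205 and 207 CPM (-0.37 ± 0.0600, adjusted p = 0.00417, and -0.37 without replicate 3). All 3 passed the test in mpk7_ko3 against Col-0 and not in mkk3-1 against Col-0. CYP71B26, a cytochrome P450, passed neither, at 21.2 to 22.2 CPM in mkk3-1, 11.5, 12.5 and 15.0 CPM in mpk7_ko3 and 14.9 to 20.1 CPM in Col-0 (0.74 ± 0.126, adjusted p = 0.00658, and 0.86 without replicate 3). In a fit of only the 6 dry mutant libraries, the calls of GSTU7, ATDAD1, ALB4 and AT4G29390 ended (adjusted p = 0.0588, 0.0755, 0.119 and 0.0642), and that of ALB4 also ended in a fit of the 9 dry libraries (0.0631).

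The remaining stable genes lie in or beside ribosomal DNA. The 18S ribosomal RNA gene AT2G01010 was at 131, 96.9 and 111 CPM in mkk3-1 and at 28.0, 45.3 and 29.0 CPM in mpk7_ko3 (1.73 ± 0.214, adjusted p = 0.000135, and 1.63 without replicate 3). Its neighbour AT2G01008, at chr2:1025-3173, was at 68.1, 66.3 and 61.1 CPM against 14.0, 23.3 and 13.6 CPM (1.94 ± 0.174, adjusted p = 9.18e-07, and 1.80 without replicate 3). Both were lower in mpk7_ko3 than in Col-0 and moved with the lower share of ribosomal RNA reads in mpk7_ko3, whose part in the result was not tested. AT3G06355, an RNA gene that shares 164 of 502 exon bases with the ribosomal RNA gene AT3G41979, went the other way, at 985, 977 and 771 CPM against 1480, 1680 and 1500 CPM (-0.77 ± 0.123, adjusted p = 0.00337, and -0.80 without replicate 3). Repeated copies can split reads between such genes, so their levels are uncertain.

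The imbibed libraries of the same mutants, whose levels are not part of the dry differences, gave a second measurement of the 23 genes. They shared the fit that estimated the spread, so they bore on which genes were called. Whether same-numbered dry and imbibed libraries came from the same seed is not given, so the states may not be independent. Imbibed mpk7_ko3 replicate 3 also stood apart from its fellows in some genes named below. In imbibed mpk7_ko3 replicates 1, 2 and 3, GSTU11 stood at 0.676, 0.341 and 3.08 CPM and SESA3 at 1770, 1710 and 658 CPM. CYP707A2 did not follow, at 66.1, 56.3 and 61.5 CPM. Of the 23 genes, 12 passed the test between imbibed mkk3-1 and imbibed mpk7_ko3 in the same direction, where 0.338% of all genes tested did. The number was 13 without mpk7_ko3 replicate 3, whether the dry or the imbibed library was left out. AT1G64795 differed by 5.42 ± 0.272, AT3G05945 by -2.59 ± 0.188, MPK7 by 1.49 ± 0.0916 and ZML1 by -0.87 ± 0.114. AGL64 had 0 reads in all 3 imbibed mkk3-1 libraries and 25, 15 and 22 in imbibed mpk7_ko3. Over all calls, 28 genes were shared by the 2 states, all in the same direction, which is 13.0% of the 215 dry and 46.7% of the 60 imbibed calls.

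Only 5 genes changed their difference between the states (0.0282% of genes tested, interaction term in edgeR), and all 5 were among the 23. The term took dry and imbibed libraries as unpaired. IRT3 went from 1.87 in dry to 5.75 in imbibed seeds, since it stood at 27.8, 28.3 and 32.2 CPM in imbibed mkk3-1 and at 0.597, 0.384 and 0.632 CPM in imbibed mpk7_ko3. ILA went from 1.97 to 0.32 and RPL18AA from 2.54 to 1.19. MKK3 itself went from -1.51 to -0.25 (imbibed adjusted p = 0.328), with 12.7, 12.3 and 10.3 CPM in imbibed mkk3-1 beside 13.0, 14.5 and 14.5 CPM in imbibed mpk7_ko3. AT2G41650 went from -1.23 to 0.00, with 24.0 to 30.7 CPM in all 6 imbibed libraries. Without dry mpk7_ko3 replicate 3, a fit added after the data had been seen, all 5 passed again among 8 calls, with changes of 3.76 for IRT3, -1.62 for ILA, -1.53 for RPL18AA, 1.25 for MKK3 and 1.24 for AT2G41650. Its read level overlaps that of its neighbour by annotation, as given above.

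**Figure D3:**
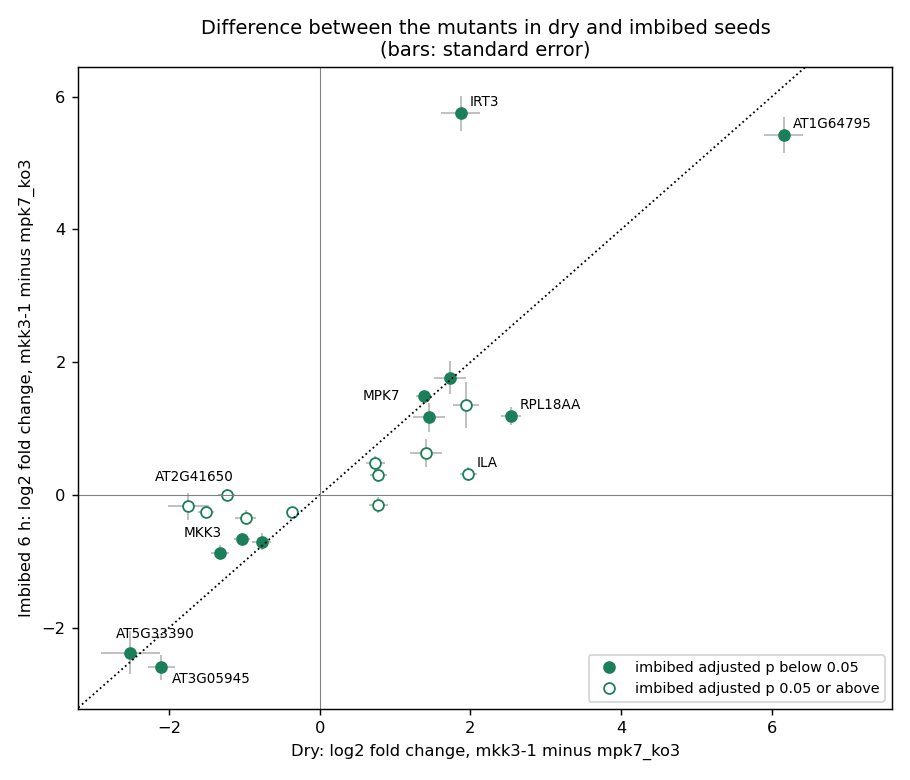
Difference between the mutants (log2 fold change, mkk3-1 minus mpk7_ko3) in dry seeds and after 6 h of imbibition for 22 of the 23 stable genes, with standard errors as bars. AGL64, without reads in imbibed mkk3-1, is left out. Filled points passed the test in imbibed seeds, and the dotted line marks equal differences. IRT3 lies above the line at 5.75, and ILA, RPL18AA, MKK3 and AT2G41650 lie nearer to 0 when imbibed.

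Outside these 23 genes, the further calls named by rule hung on single libraries. Of these 29, 28 ended in a fit of only the 6 dry mutant libraries and 27 in a fit of the 9 dry libraries. Those fits called only 29 and 39 genes in all, so most calls of the fit of all libraries had to end there. These counts are thus no mark of the named calls. Some of the named calls were also chosen because they ended without mpk7_ko3 replicate 3. LSU2, a small protein induced by sulfur deficiency, was at 11.3, 9.42 and 6.76 CPM in mkk3-1 and at 4.55, 3.46 and 2.81 CPM in mpk7_ko3 (1.35 ± 0.302, adjusted p = 0.0351). It held without mpk7_ko3 replicate 3 (1.2, adjusted p = 0.0433) but not without mkk3-1 replicates 1 or 2 or mpk7_ko3 replicate 2 (adjusted p = 0.127, 0.0587 and 0.117). AT7SL-1, an RNA of the signal recognition particle, was at 128, 220 and 105 CPM against 90.6, 49.4 and 33.7 CPM (1.39 ± 0.305, adjusted p = 0.0337, and 1.11 without mpk7_ko3 replicate 3, adjusted p = 0.038), and its call ended without the same 3 libraries (adjusted p = 0.0656, 0.106 and 0.126). HEI10, a RING protein of meiotic crossover formation, was lower in mkk3-1 at 4.60, 4.93 and 6.00 CPM against 9.93, 8.46 and 13.0 CPM (-1.02 ± 0.174, adjusted p = 0.00728), and -0.83 without mpk7_ko3 replicate 3. Of the 6 libraries, only mkk3-1 replicate 1 ended its call when left out (adjusted p = 0.0582). It shares 922 of its 2252 exon bases with MRD1 on the other strand and 839 with AT1G07887 on its own. In the fit of the 6 libraries adjusted p was 0.0659 for LSU2, 0.143 for AT7SL-1 and 0.0940 for HEI10, and in that of the 9 it was 0.0885 for AT7SL-1.

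Of the 29 gene lists, which cover the MKK3 module, hormones, dormancy, heat shock, storage and cell types, 12 of 358 measured members were called (3.35%; all genes 1.21%), 8 higher and 4 lower. Without mpk7_ko3 replicate 3, 35 were called (9.78%, with all genes at 4.94% of those tested in both fits), 24 higher and 11 lower. Both counts include MKK3 and MPK7, the targeted genes. The lists were chosen with earlier results of these data known, so these shares are no test of the lists. The MKK3 module had 10 of 14 members measured, and MKK3 and MPK7 were the members called. Its median was 0.151, with the other group C kinases MPK1, MPK2 and MPK14 at 0.05, 0.09 and 0.33 (adjusted p = 0.902, 0.869 and 0.610), and at 0.26, 0.32 and 0.62 without replicate 3 (0.345, 0.444 and 0.314). The upstream kinases MAPKKK13, MAPKKK14, MAPKKK19 and MAPKKK20 lay between 0.12 and 0.39, or 0.03 and 0.38 without replicate 3, and missed the threshold with and without replicate 3. ERF4, a repressor of the ethylene response, stood at -0.17 ± 0.206 (adjusted p = 0.722), and at -0.30 without replicate 3 (adjusted p = 0.473).

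Of the 29 lists, 18 had no called member, and 9 of these had none without replicate 3 either. DOG1, a central dormancy gene, was at 54.9, 64.4 and 55.5 CPM in mkk3-1 and at 69.2, 66.4 and 55.0 CPM in mpk7_ko3 (-0.12 ± 0.147, adjusted p = 0.710). Replicate 3 was the lowest mpk7_ko3 library, and without it the difference was -0.22 (adjusted p = 0.461). None of the 18 dormancy and maturation regulators measured was called, where 1.21% of all genes were, and without replicate 3 only ABI3, a B3 factor of seed maturation, was lower in mkk3-1 (-0.31, adjusted p = 0.0323). CYP707A2, which breaks down abscisic acid, was at 49.9, 55.7 and 54.1 CPM against 73.6, 78.5 and 49.7 CPM. Replicate 3 lay with mkk3-1, and the gene passed the test only without it (-0.34, adjusted p = 0.263, against -0.51, adjusted p = 0.0353). None of the 21 gibberellin genes and 16 expansin and cell wall genes was called with all libraries, and only the DELLA repressor RGL3 without replicate 3 (-0.57, adjusted p = 0.0112). ABI1, a phosphatase that restrains abscisic acid signalling, was the single call among 23 signalling genes (4.35%, with 1.21% of all genes). It was at 57.5, 42.6 and 54.4 CPM against 31.3, 34.3 and 37.0 CPM (0.59 ± 0.116, adjusted p = 0.0179, and 0.65 without replicate 3). Its call ended without mkk3-1 replicates 1 or 3 or mpk7_ko3 replicates 1 or 2 (adjusted p = 0.0784, 0.0646, 0.0574 and 0.0762), and in the fits of 6 and 9 libraries (0.118 and 0.0881). HAI3, another phosphatase of this list, was lower in mkk3-1 and passed only without replicate 3 (-0.50, adjusted p = 0.0648, against -0.57, adjusted p = 0.0287).

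Small heat shock proteins, chaperones that bind unfolded proteins and are abundant in dry seeds, had a median of 0.258 over 15 measured genes, 14 of them above 0, and 1 call (6.67%). The lowest member stood at -0.93 and was not called. Of all genes tested, 8939 of 17758 were above 0 and 1.21% were called. ATHSP22.0 was at 447, 387 and 420 CPM in mkk3-1 and at 177, 171 and 315 CPM in mpk7_ko3, with 128 to 150 CPM in Col-0. The groups did not overlap, but replicate 3 lay between them, and the difference of 0.92 ± 0.172 (adjusted p = 0.0144) was 1.26 without it (adjusted p = 6.42e-06). The call ended without mkk3-1 replicate 1 or mpk7_ko3 replicate 2 (adjusted p = 0.0625 and 0.0886), and in the fits of 6 and 9 libraries (0.128 and 0.0757). Without replicate 3, 5 of the 15 were called higher (33.3%), where 4.94% of all genes tested in both fits were called. HSP21, of the plastid, was at 132, 125 and 104 CPM against 44.2, 37.9 and 105 CPM, so that replicate 3 reached the mkk3-1 range (0.94, adjusted p = 0.0773, against 1.55, adjusted p = 0.000142). HSP17.6II of the cytosol was at 312, 311 and 249 CPM against 144, 139 and 317 CPM (0.54, adjusted p = 0.291, against 1.04, adjusted p = 0.0101). In HSP17.4 replicate 3 was instead shifted away from mkk3-1. The gene stood at 335 to 476 CPM in mkk3-1 and at 350, 346 and 101 CPM in mpk7_ko3 (0.55, adjusted p = 0.409, against 0.16, adjusted p = 0.781, without replicate 3). It shares 453 of 724 exon bases with AT3G07365 on the other strand. Without replicate 3, HSF4, a heat shock factor, was also higher in mkk3-1 (0.46, adjusted p = 0.0277, with 0.29 and adjusted p = 0.213 for all libraries).

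The 250 bases before the annotated start of ATHSP22.0 and HSP21 are given because these genes had the highest log2 fold changes of the list, with matches to the paired heat shock half-site GAANNTTC in capitals (its own reverse complement).
ATHSP22.0, chr4:6370088-6370337, plus strand: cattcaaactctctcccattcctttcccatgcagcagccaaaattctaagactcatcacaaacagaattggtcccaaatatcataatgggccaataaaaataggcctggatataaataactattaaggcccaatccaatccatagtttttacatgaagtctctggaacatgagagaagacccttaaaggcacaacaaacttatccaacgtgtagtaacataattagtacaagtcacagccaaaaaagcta
HSP21, chr4:13819972-13820221, minus strand: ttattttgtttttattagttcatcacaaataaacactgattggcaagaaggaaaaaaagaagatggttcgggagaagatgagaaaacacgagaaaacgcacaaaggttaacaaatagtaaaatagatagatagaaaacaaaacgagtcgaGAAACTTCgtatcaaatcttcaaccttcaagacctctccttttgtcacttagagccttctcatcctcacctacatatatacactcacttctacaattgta
HSP21 holds 1 match and ATHSP22.0 0 in this window, and 9.55% of 27443 nuclear protein-coding promoters of this length hold one. A match is a string of letters and not a shown binding site.

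**Figure D4:**
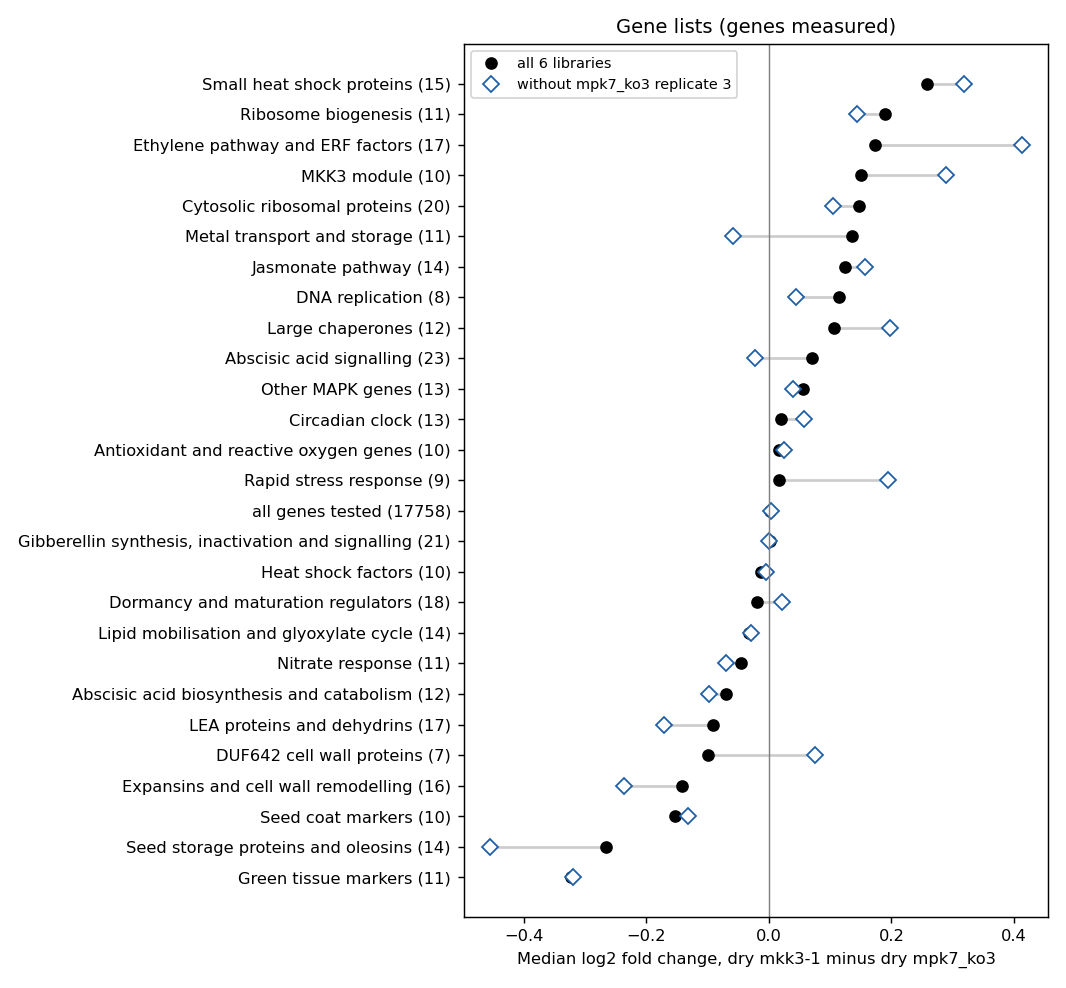
Median difference (log2 fold change, dry mkk3-1 minus dry mpk7_ko3) of the gene lists with at least 7 measured members, and of all genes tested, with all 6 libraries (black) and without mpk7_ko3 replicate 3 (open blue diamonds). Small heat shock proteins had the highest median with all libraries, at 0.258, and seed storage proteins and oleosins moved from -0.266 to -0.455.

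Storage genes moved with replicate 3 as well. Seed storage proteins and oleosins had a median of -0.266 over 14 genes, and -0.455 without replicate 3, and their summed level was 62700, 74100 and 69700 CPM in mkk3-1 and 100000, 88200 and 66600 CPM in mpk7_ko3, so that replicate 3 fell within the mkk3-1 range. SESA3, a 2S albumin, was at 787, 924 and 1210 CPM in mkk3-1 and at 3580, 3670 and 1240 CPM in mpk7_ko3 (-1.54 ± 0.442, adjusted p = 0.0832, against -1.90, adjusted p = 0.0127, without replicate 3). HSD1, a sterol dehydrogenase of oil bodies, was the one call of the list with all libraries (1.13 ± 0.274, adjusted p = 0.0475), at 242, 121 and 175 CPM against 116, 85.2 and 44.9 CPM. That call ended without mpk7_ko3 replicates 2 or 3 (adjusted p = 0.136 and 0.0570) and without mkk3-1 replicates 1 or 3 (0.2 and 0.104). It also ended in the fits of 6 and 9 libraries (0.173 and 0.166) and with DESeq2 size factors (0.0513), and reads may be split with the like-named AT5G50700.

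EPR1, an extensin-like cell wall protein of the endosperm, was lower in mkk3-1, at 11700, 12800 and 11400 CPM against 18500, 18000 and 19000 CPM, with 17500 to 24100 CPM in Col-0. The groups were well apart and replicate 3 lay with its own group (-0.63 ± 0.151, adjusted p = 0.0449, and -0.61 without replicate 3), but the call ended on leaving out any of the other 5 libraries (adjusted p from 0.0508 to 0.146) and in the fits of 6 and 9 libraries (0.0940 and 0.0882). EPR1 carried nearly all of the summed level of the 7 endosperm markers, of which 3 were tested, and ZOU was at 0 reads in both mutants and MEA at 0 in mkk3-1. In whole seeds, fewer cells of a type and less RNA per cell cannot be told apart. Summed seed coat markers ran from 315 to 350 CPM in mkk3-1 and from 348 to 366 CPM in mpk7_ko3, and green tissue markers from 159 to 201 and from 183 to 248 CPM, with RBCS2B at 0 in mkk3-1. None of the 10 seed coat and 11 green tissue markers tested was called with or without replicate 3. Their medians were -0.153 and -0.323 with it and -0.132 and -0.319 without it. What part these tissues have in the other differences was not tested.

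Some further lists had a call each. PER1, a seed peroxiredoxin, was at 3070, 3430 and 3140 CPM in mkk3-1 and at 4760, 4160 and 4560 CPM in mpk7_ko3 (-0.49 ± 0.111, adjusted p = 0.0387, and -0.47 without replicate 3). ERF12, an ERF repressor, was at 110, 117 and 115 CPM against 135, 140 and 155 CPM (-0.33 ± 0.0690, adjusted p = 0.0232, and -0.27 without replicate 3). AOS, the first committed enzyme of jasmonate synthesis, was at 24.6, 25.9 and 21.2 CPM against 17.6, 16.5 and 17.3 CPM (0.48 ± 0.116, adjusted p = 0.0464, and 0.49 without replicate 3). For all 3 genes the groups did not overlap. These calls ended without mkk3-1 replicate 1 and without mpk7_ko3 replicate 2 (adjusted p = 0.146 and 0.0807 for PER1, 0.109 and 0.0735 for ERF12, and 0.132 and 0.150 for AOS). They also ended without mkk3-1 replicate 3 for PER1 and ERF12 (0.108 and 0.0622), without mkk3-1 replicate 2 for AOS (0.115) and without mpk7_ko3 replicate 1 for PER1 and AOS (0.0899 and 0.0844). In the fits of 6 and 9 libraries adjusted p was 0.139 and 0.116 for PER1, 0.152 and 0.120 for ERF12, and 0.139 and 0.0803 for AOS. The call of ERF12 also ended with library totals (0.0885) and that of AOS with DESeq2 size factors (0.0505). Of 17 ethylene and ERF genes measured, 3 were higher and 1 lower without replicate 3 (23.5%), and the median moved from 0.173 to 0.413. In the same fit, 2 of 10 antioxidant genes were higher (APX1 at 1.93 and CSD1 at 0.86) and 1 lower (30%). Of 14 jasmonate genes, 2 were higher and 1 lower (21.4%). Of all genes tested in both fits, 4.94% were called.

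Ribosomal genes had calls that rested on every library. RPS10B, of the small subunit, was the 1 call among 20 cytosolic ribosomal proteins (0.38 ± 0.0944, adjusted p = 0.0497), at 89.7, 94.3 and 94.0 CPM in mkk3-1 against 76.9, 69.4 and 66.9 CPM. NAP57, a pseudouridine synthase, was the 1 call among 11 ribosome biogenesis genes (0.41 ± 0.0946, adjusted p = 0.0396), at 148, 156 and 163 CPM against 124, 119 and 110 CPM. Replicate 3 was the lowest mpk7_ko3 library in both, and without it they stood at 0.34 and 0.36 (adjusted p = 0.0648 and 0.0501). Without each of the other 5 libraries, adjusted p ran from 0.0560 to 0.154 for RPS10B and from 0.0632 to 0.122 for NAP57. In the fits of 6 and 9 libraries it was 0.119 and 0.146 for RPS10B and 0.101 and 0.120 for NAP57. The call of RPS10B also ended with DESeq2 size factors (0.0543) and with the length trend removed (0.0566). The medians of the 2 lists were 0.147 and 0.189, with 19 of 20 and 9 of 11 members above 0, where 8939 of 17758 genes tested were.

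Among genes with a mean of at least 5 CPM that passed the test only without mpk7_ko3 replicate 3, the largest difference was in CYP81F2, a cytochrome P450 of indole glucosinolate synthesis, at 13.3, 5.0 and 8.28 CPM in mkk3-1 and at 0.620, 0.733 and 7.95 CPM in mpk7_ko3. Replicate 3 fell among the mkk3-1 values, and the difference was 1.48 ± 0.621 with it (adjusted p = 0.225) and 3.70 without it (adjusted p = 0.00341). GSTU11, a glutathione transferase of the tau class, was at 24.8, 10.6 and 24.5 CPM against 2.07, 1.73 and 18.7 CPM (1.39, adjusted p = 0.254, against 3.40, adjusted p = 0.00409). Dry Col-0 held 1.37 to 4.15 CPM of CYP81F2 and 3.29 to 9.13 CPM of GSTU11. In these 2 genes every mkk3-1 library and mpk7_ko3 replicate 3 thus lay above Col-0. The legume lectin gene AT3G16530 was at 18, 6.89 and 16.4 CPM against 1.65, 1.80 and 15.8 CPM (1.07 against 3.0 without replicate 3, adjusted p = 0.423 and 0.0254), and shares 289 of 1194 exon bases with AT3G16525 on the other strand. CYP82C2, ATBFRUCT1 (a cell wall invertase) and AT1G26420 (a berberine bridge enzyme-like protein) followed, with differences of 2.88, 2.86 and 2.88 without replicate 3. In all 6 genes replicate 3 lay within the mkk3-1 range, while replicates 1 and 2 lay below every mkk3-1 and every Col-0 library. In AT3G16530, CYP82C2, ATBFRUCT1 and AT1G26420 the ranges of Col-0 and mkk3-1 overlapped. The 6 genes were picked for large differences that passed only without replicate 3. The place of the mpk7_ko3 libraries relative to mkk3-1 thus follows largely from the choice.

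WRKY33, a transcription factor induced by pathogens, passed only without replicate 3 as well. It was at 167, 92.3 and 209 CPM in mkk3-1 and at 42.3, 43.9 and 187 CPM in mpk7_ko3, with 56.2 to 124 CPM in Col-0 (0.77, adjusted p = 0.367, against 1.86, adjusted p = 0.00548, without replicate 3). The promoters of the 2 leading genes are shown with matches to the W-box core TTGAC, the string that WRKY factors bind, and to the as-1 core TGACG in capitals, on either strand.
CYP81F2, chr5:23187590-23187839, plus strand: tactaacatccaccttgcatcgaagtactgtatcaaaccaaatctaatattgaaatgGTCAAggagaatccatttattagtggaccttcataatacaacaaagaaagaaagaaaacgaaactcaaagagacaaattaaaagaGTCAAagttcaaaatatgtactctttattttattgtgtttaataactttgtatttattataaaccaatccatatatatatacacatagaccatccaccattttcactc
GSTU11, chr1:26338819-26339068, minus strand: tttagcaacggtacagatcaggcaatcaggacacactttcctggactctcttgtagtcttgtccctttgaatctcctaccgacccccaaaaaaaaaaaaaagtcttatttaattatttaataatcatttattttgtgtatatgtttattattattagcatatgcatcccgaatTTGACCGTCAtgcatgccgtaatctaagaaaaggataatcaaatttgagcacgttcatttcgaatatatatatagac
CYP81F2 holds 2 matches to TTGAC and GSTU11 holds 1 match to each string, side by side without overlap. Of all promoters of this length, 44.9% hold TTGAC and 18.6% hold TGACG, so that a match is common.

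Genes lower in mkk3-1 once replicate 3 was left out included pectin-modifying enzymes. VGDH1, a pectin methylesterase known from pollen tubes, was at 4.37, 2.21 and 2.62 CPM in mkk3-1 and at 12.5, 11.4 and 4.49 CPM in mpk7_ko3 (-1.61, adjusted p = 0.0921, against -1.95, adjusted p = 0.0175). The pectin lyase-like genes AT3G07820 and AT5G07430 stood at 1.52 to 4.88 and 2.59 to 3.26 CPM in mkk3-1, against 19.1, 14.2 and 7.90 CPM and 13.4, 9.66 and 3.89 CPM. Without replicate 3 they differed by -2.22 and -1.95 (adjusted p = 0.0143 and 0.0345), and with it they did not pass the test (adjusted p = 0.0550 and 0.141). In all 3 genes replicate 3 lay above the mkk3-1 libraries but nearer to them than its fellows did. That place follows largely from the choice of genes that passed only without it. The 3 genes also varied within dry Col-0. There VGDH1 was at 2.12, 1.90 and 6.93 CPM, AT3G07820 at 2.60, 3.02 and 9.31 CPM and AT5G07430 at 2.06, 0.948 and 7.06 CPM.

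**Figure D5:**
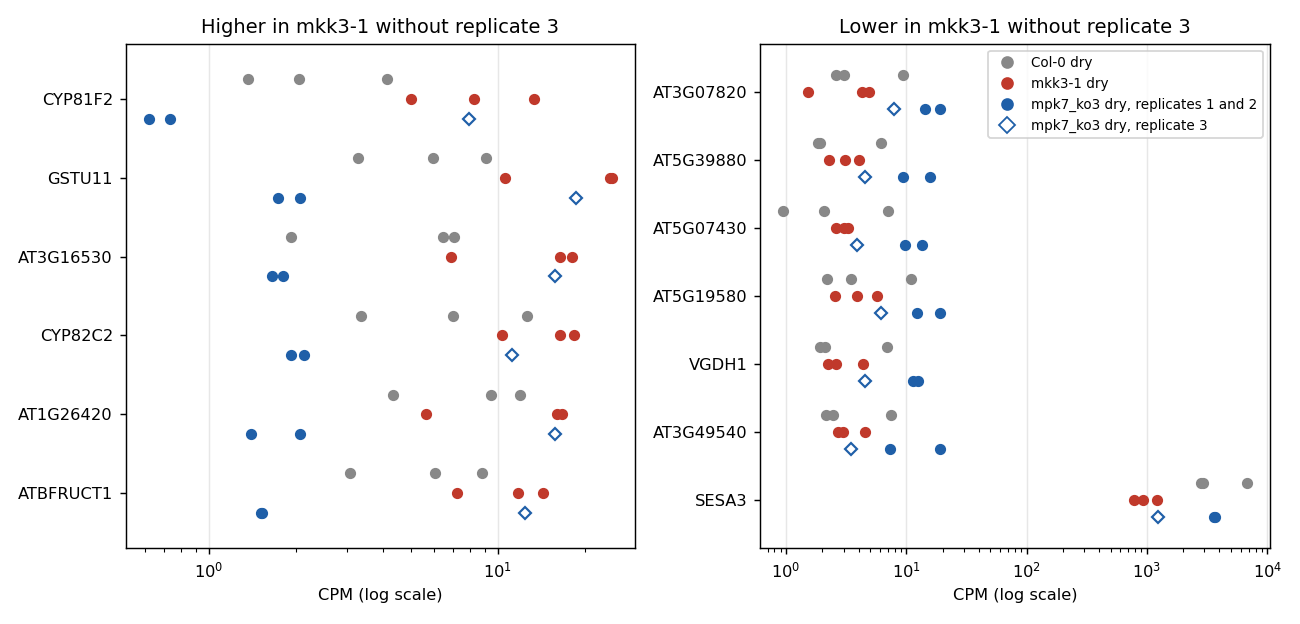
CPM in each dry library (log axis) of genes that passed the test only without mpk7_ko3 replicate 3, for the 6 largest differences each way and the albumin gene SESA3. Symbols are grey for Col-0, red for mkk3-1, filled blue for mpk7_ko3 replicates 1 and 2 and an open blue diamond for replicate 3. CYP81F2 was at 0.620 and 0.733 CPM in mpk7_ko3 replicates 1 and 2 and at 7.95 CPM in replicate 3.

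Among the named genes of the 28 calls lost without replicate 3, that library was farthest from mkk3-1 in all but AT5G56240. There it lay between the other 2, at 42.5, 47.8 and 47.7 CPM in mpk7_ko3 against 37.9, 36.0 and 40.2 CPM in mkk3-1 (-0.28, adjusted p = 0.0409, against -0.25 and 0.0533). These genes are defined by a call that ended without replicate 3, so its place in them follows largely from the choice. SDH8, a subunit of mitochondrial succinate dehydrogenase, was at 35.9, 50.1 and 37.5 CPM in mkk3-1 and at 31.0, 17.9 and 13.9 CPM in mpk7_ko3 (0.98 ± 0.233, adjusted p = 0.0434, against 0.75 and 0.0601). DWF1, a brassinosteroid synthesis enzyme, was at 9.77, 6.96 and 11.7 CPM against 5.45, 5.20 and 4.90 CPM (0.88 ± 0.212, adjusted p = 0.0469, against 0.84 and 0.0519). ARPN, a plantacyanin, was at 95.3, 110 and 86.3 CPM against 140, 114 and 151 CPM (-0.48 ± 0.109, adjusted p = 0.0387, against -0.38 and 0.0534). In the 3 genes the groups did not overlap with all libraries. Their calls ended on other libraries too, with adjusted p of 0.0736 to 0.158 for SDH8 (without mkk3-1 replicates 1, 2 or 3 or mpk7_ko3 replicate 2), 0.0844 to 0.161 for DWF1 (without any but mkk3-1 replicate 2) and 0.0786 to 0.132 for ARPN (without mkk3-1 replicates 1 or 3 or mpk7_ko3 replicate 1). In the fits of 6 and 9 libraries it was 0.149 and 0.116 for SDH8, 0.139 and 0.128 for DWF1, and 0.152 and 0.123 for ARPN, whose call also ended with library totals (0.0536).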

How the data were processed

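RNA of dry and imbibed seeds was sequenced as paired reads, per the labels. The values the authors deposited are whole-number read counts, 1 per gene and library, not normalized. Reads were handled with featureCounts 2.0.1, HISAT2 2.1.0 and fastp 0.20.0, in an order not given, with the build TAIR10 and DESeq2 1.34.0 also named, per the submitters' processing notes. Strand setting and multi-mapping treatment are not given in the sources used here. Genes passing filterByExpr (minimum count 10) numbered 17758 of 32833, and those removed held 0.0393% of counts. Counts of all 18 libraries, 6 groups of 3, were fitted in edgeR 4.0.16 (R 4.3.3; TMM factors, glmQLFit and glmQLFTest, 12 residual degrees of freedom), two-sided, threshold 0.05. Each standard error is the size of the log2 fold change divided by the root of its F statistic. Log2 CPM used a prior count of 2. Alternatives were DESeq2 1.42.0, other scalings, filters and library subsets. The fit was tested on simulated data.

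Of the gene IDs, 32548 matched RefSeq (TAIR10.1), 99.95% with the same start and end, and sequences and symbols are from RefSeq. Of 412 members of the 29 gene lists, 385 matched in both locus and symbol, and for 27 the locus was the sole match. Named were MKK3, MPK7, DOG1, CYP707A2, ERF4 and upstream kinases, the largest differences at a mean of at least 5 CPM that passed with and without mpk7_ko3 replicate 3, those that passed in only 1 of these fits, and list members. The 23 stable genes were named after their values were seen. The members and lists were chosen with earlier results of these data known. Same-numbered dry replicates of the mutants did not deviate together (correlations -0.130, 0.081 and 0.137), so numbers were not used as pairs. Pairing of dry with imbibed libraries by number was not tested. Replicates differed by more than counting noise (chi-square per degree of freedom 8.13 to 34.9 within the 2 groups).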

Additional observations from a re-analysis of the deposited data

Results flagged for a closer look

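The difference between the mutants (mkk3-1 minus mpk7_ko3) was itself different in dry and imbibed seeds for 5 genes, by the interaction term in edgeR. The change from dry to imbibed was 3.88 for IRT3 (adjusted p = 3.01e-05), -1.66 for ILA (adjusted p = 1.37e-05), -1.36 for RPL18AA (adjusted p = 0.00186), 1.26 for MKK3 (adjusted p = 0.000135) and 1.24 for AT2G41650 (adjusted p = 0.000186). These are the 5 genes described with both states above.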

How the results depend on the processing

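The 215 calls between the dry mutants became 610 with DESeq2, 504 with no low-count filter, 324 with the length trend removed, 29 and 39 in fits of only the 6 dry mutant or 9 dry libraries, 28 at an adjusted p below 0.01 and 46 with a change of at least 2-fold. Leaving out 1 library gave 33 to 882, and leaving out mpk7_ko3 replicate 3 in both states 1095. Other scalings and gene sets gave 214 to 233. With the replicate number as a block the calls were 247, and 92 in a fit of only the 6 dry mutant libraries. Same-numbered dry libraries of the 2 mutants did not deviate together, and pairing of dry with imbibed libraries was not tested. DESeq2 called 212 of the 215 and gave no adjusted p for 3. Of the 23 stable genes, 17 passed in all 13 further fits, 4 missed the threshold in at least 1, and 2 (AGL64 and AT2G01010) passed where they had a value but had none in at least 1. Without mpk7_ko3 replicate 3, DESeq2 gave 1167 calls and a fit of only the 5 libraries left 747 in place of 882, both added after seeing the data. The 60 imbibed calls became 198 without mpk7_ko3 imbibed replicate 3 and 226 with DESeq2, and the 5 interaction calls 8 without dry mpk7_ko3 replicate 3, 16 without mpk7_ko3 replicate 3 in both states and 12 with DESeq2. No named gene past the test changed sign in any fit run.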

Other observations

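Gene families not among the lists, chosen after their values were seen, gave counts of the same kind. Of all genes tested, 1.21% were called with all libraries, and 4.94% of those tested in both fits without mpk7_ko3 replicate 3. Of 18 tau-class glutathione transferases measured, 2 were higher in dry mkk3-1 with all libraries and 6 (33.3%) without replicate 3. Of 7 phi-class members, 0 were called with all libraries and 3 (42.9%) were higher without it. Of 15 FAD-binding Berberine family genes, 0 were called with all libraries, and 4 were higher and 1 lower without it (33.3%). Of 123 cytochromes P450, 4 were higher with all libraries, and 17 higher and 2 lower without replicate 3 (15.4% of the family, against 4.94% of all genes tested in both fits). Among 78 genes annotated as pectin lyase-like, pectate lyase or pectin methylesterase, 0 were called with all libraries and 11 (14.1%) were lower without replicate 3. The family median was -0.30 with all libraries and -0.42 without replicate 3. Of the 2 measured genes of the low-sulfur response family, both were higher with and without replicate 3.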
